A study of Mus musculus with 6 samples.

Results

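The genes described here encode 7 CCCH zinc finger proteins that bind messenger RNA and mark it for decay, namely Zfp36, Zfp36l1 and Zfp36l2 (the ZFP36 family), Zc3h12a and Zc3h12d (Regnase family), and Rc3h1 and Rc3h2 (the Roquins). They were chosen by name, as the rows of the authors' table that carry these 7 gene symbols, out of 22322 genes in the table. All 7 had enough reads to be tested, among 11488 tested genes. RNA-Seq was performed on DP thymocytes (CD4+CD8+ thymocytes) sorted from the thymus of untreated mice. The 3 control libraries came from Paxbp1 fl/fl mice, which carry the floxed allele without Cre, and the 3 cKO libraries from Paxbp1 fl/fl mice with the Lck-cre transgene, in which Cre acts in the T lineage from an early thymocyte stage. All mice were 4 to 7 weeks old, of both sexes, with littermates as controls. How many mice went into a library was not given in the sources used here, so p-values measure the spread between these libraries.

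The proteins of the ZFP36 family bind AU-rich elements in the 3′ UTR of short-lived mRNAs and recruit the CCR4-NOT complex, which removes the poly(A) tail. Regnase-1, encoded by Zc3h12a, is an endonuclease that cuts stem-loops in the 3′ UTR, and the Roquins bind stem-loops of a similar kind and also bring in CCR4-NOT. In T cells these proteins limit the mRNAs of cytokines, costimulatory receptors and cell cycle regulators, and in thymocytes Zfp36l1 and Zfp36l2 together restrain Notch1 mRNA and cell cycle entry.

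Libraries held 18963775 to 26252248 counts, at which 1 count equalled 0.0381 to 0.0527 CPM, the unit that scales counts to library size. This range is by library size alone, while the CPM levels of genes given below include TMM factors, which lay between 0.982 and 1.01. Paxbp1, the targeted gene, had 774, 318 and 400 counts in the control libraries and 851, 905 and 1075 in the cKO-labelled libraries (log2 fold change 0.92, standard error 0.33, edgeR adjusted p = 0.0977). Only exon 8 is floxed, and counts over the whole gene do not measure it, so the genotype labels were not checked by this gene and every direction below rests on them. All 10 markers of DP thymocytes were detected in every library. Their summed level was 10728 to 12615 CPM in the control libraries and 7802 to 9266 CPM in the cKO-labelled libraries, and 3 of 10 (Rag1, Cd3e and Cd8b1) were lower at an adjusted p below 0.05 in edgeR, though none of them without cKO 3. In bulk samples, fewer cells of a type and less RNA per cell cannot be told apart.

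The zinc finger is what the 7 proteins share. It is built from 3 cysteines and 1 histidine that hold a zinc ion, and the spacing between these residues sets the Regnases apart from the others. In the ZFP36 and Roquin proteins the spacing was 8, 5 and 3 residues, and in both Regnases it was 5, 5 and 3. A pair of fingers was found in each ZFP36 protein and 1 finger in each of the others. The coding sequence of the first finger is shown for each gene, 5′ to 3′, with the codons of the cysteines and the histidine in capitals, from GENCODE release M21 transcripts on mouse build GRCm38.
Zfp36, codons 101 to 120, chr7:28378158-28378217, minus strand: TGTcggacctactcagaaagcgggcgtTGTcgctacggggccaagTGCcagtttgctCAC
Zfp36l1, codons 120 to 139, chr12:80110189-80110248, minus strand: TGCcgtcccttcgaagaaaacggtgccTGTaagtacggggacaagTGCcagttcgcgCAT
Zfp36l2, codons 161 to 180, chr17:84186668-84186727, minus strand: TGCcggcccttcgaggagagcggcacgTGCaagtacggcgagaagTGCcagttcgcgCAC
Rc3h1, codons 419 to 438, chr1:160950255-160950314, plus strand: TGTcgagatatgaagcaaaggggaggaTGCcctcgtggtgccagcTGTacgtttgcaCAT
Rc3h2, codons 416 to 435, chr2:37398264-37398323, minus strand: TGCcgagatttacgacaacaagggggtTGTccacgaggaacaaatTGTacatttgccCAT
Zc3h12a, codons 306 to 322, chr4:125120104-125120335, minus strand, with an intron inside the interval: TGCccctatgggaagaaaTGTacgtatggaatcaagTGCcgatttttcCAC
Zc3h12d, codons 263 to 279, chr10:7866325-7867304, plus strand, with an intron inside the interval: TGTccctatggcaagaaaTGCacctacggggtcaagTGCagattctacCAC

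Over the 60 bases of this finger, Zfp36l1 and Zfp36l2 shared 49, while Zfp36 shared 42 with Zfp36l1 and 40 with Zfp36l2. The other finger of Zfp36l1 and Zfp36l2 differed between them at the base level only, with 54 of 60 bases and all 20 encoded residues identical. Rc3h1 and Rc3h2 shared 39 of 60 bases, and Zc3h12a and Zc3h12d 41 of 51.

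The mRNAs of 5 of the 7 proteins carry the AU-rich motif themselves. The motif searched was UUAUUUAUU, the letters that the ZFP36 fingers bind best, on the transcript strand and with overlapping matches counted, in the annotated 3′ UTR of the first listed coding transcript of each gene. It was present once in each of Zfp36, Zfp36l1, Zfp36l2, Rc3h1 and Rc3h2 and in neither Regnase mRNA. Among 21683 genes with an annotated 3′ UTR of any length, 1476 (6.81%) held it, a share not matched to the lengths of the 7 genes. The 3′ UTRs were 774, 1835 and 1822 nt long in Zfp36, Zfp36l1 and Zfp36l2, 7181 and 5331 nt in Rc3h1 and Rc3h2, and 856 and 2327 nt in Zc3h12a and Zc3h12d. The windows below give the motif in capitals as DNA. Those of 3 reported targets that were higher in the cKO-labelled libraries are given with them. A match is a description of the sequence and not a measured binding site.
Zfp36, chr7:28376953-28376977, minus strand: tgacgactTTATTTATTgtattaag
Zfp36l1, chr12:80108169-80108193, minus strand: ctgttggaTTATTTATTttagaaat
Zfp36l2, chr17:84184916-84184940, minus strand: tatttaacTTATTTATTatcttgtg
Rc3h1, chr1:160970045-160970069, plus strand: tttactcaTTATTTATTgagatgag
Rc3h2, chr2:37373289-37373313, minus strand: aagacattTTATTTATTttactctg
Ptgs2, chr1:150105792-150105816, plus strand: gaccatatTTATTTATTtatgtgaa
Ccne2, chr4:11204118-11204142, plus strand: ctagaaatTTATTTATTtaaacttg
Pim1, the second of 3 overlapping matches, chr17:29495695-29495719, plus strand: gtatttatTTATTTATTtatttggt

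The levels of the 7 genes in DP thymocytes spanned a wide range, which was compared on the authors' FPKM because this unit is scaled to gene length. In the control libraries the order from high to low was Zfp36 (94.4 ± 27.3 FPKM, mean ± S.D., n = 3), Zfp36l2 (51.6 ± 8.98), Zfp36l1 (43.8 ± 13.6), Rc3h1 (20.2 ± 4.88), Rc3h2 (6.50 ± 2.04), Zc3h12a (2.05 ± 0.917) and Zc3h12d (0.697 ± 0.169). Neighbours in this order did not overlap between libraries except Zfp36l2 and Zfp36l1, which stood in that order in 2 of 3 control libraries. In the cKO-labelled libraries the same order held apart from that pair, with Zfp36l1 (60.3 ± 17.4 FPKM) above Zfp36l2 (55.2 ± 3.41) in 2 of 3 libraries. Averaged over all 6 libraries, Zfp36 lay above 91.5% of the tested genes in FPKM, and Zc3h12d above 8.30%.

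Zfp36 encodes tristetraprolin, the founding member of its family and an immediate early gene. Its gene lies on chromosome 7 of GRCm38 from 28376784 to 28380253. It had 333, 198 and 239 CPM in control libraries 1, 2 and 3, and 495, 223 and 255 CPM in the cKO-labelled libraries 1, 2 and 3. Library cKO 1 stood far above the others, while cKO 2 and cKO 3 lay inside the control range. The log2 fold change (log2 FC, cKO over control, here and throughout) was 0.34, with a 95% interval from -0.29 to 0.97 (edgeR adjusted p = 0.479). Without cKO 1 it was -0.10, so the direction rested on that library.

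Zfp36l1 (chromosome 12, 80107754 to 80113013) and Zfp36l2 (chromosome 17, 84183931 to 84187947) act redundantly in early thymocytes. Zfp36l1 had 129, 78.8 and 80.0 CPM in the control libraries and 163, 86.5 and 148 CPM in the cKO-labelled libraries. Libraries cKO 1 and cKO 3 lay above all controls and cKO 2 lay within them, with a log2 FC of 0.47 (95% interval -0.086 to 1.02, edgeR adjusted p = 0.254). It was 0.29 without cKO 1 and 0.74 without control 1 (adjusted p = 0.570 and 0.0523). Zfp36l2 had 155, 174 and 221.7 CPM in the control libraries and 206, 181 and 193 CPM in the cKO-labelled libraries. The cKO values all lay inside the control range. With a log2 FC of 0.075, its 95% interval ran from -0.24 to 0.39 (edgeR adjusted p = 0.778), and without control library 1 the value was -0.035. Annotated genes on the opposite strand overlap 36.7% of Zfp36, 94.4% of Zfp36l1 and 54.6% of Zfp36l2. Strand use in the counting was not given in the sources used here, so reads of these partners cannot be told apart. Rc3h1 and Rc3h2 hold annotated genes on their own strand, of which none overlaps more than 5.22% of either gene, introns included. The longest overlap was 3578 nt in Rc3h1, whose transcript has 11006 nt. Whether it covers exons was not tested.

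Zc3h12a, which encodes the endonuclease Regnase-1, came closest to the threshold. The gene lies on chromosome 4 from 125118423 to 125127840. It had 163, 74 and 123 counts in the control libraries and 313, 181 and 309 counts in the cKO-labelled libraries, which gave 8.45, 3.80 and 4.77 CPM against 14.3, 9.42 and 14.3 CPM. Every library labelled cKO lay above every control library, although cKO 2 exceeded control 1 by little. The log2 FC was 1.16 (SE 0.34, 95% interval 0.42 to 1.90), a 2.23-fold higher level. The adjusted p was 0.0533 (edgeR, quasi-likelihood, adjusted by Benjamini and Hochberg's method over 11488 genes). The adjusted p crossed 0.05 with the choice of tool. DESeq2 gave 0.0122 and limma-voom 0.0386, with log2 FCs of 1.17 and 1.24. With 1 library left out in turn, edgeR gave 0.00989 without control 1 (log2 FC 1.55) and 0.0601 to 0.181 without each of the others (0.94 to 1.33).

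Zc3h12d, also a Regnase gene, was the lowest of the 7 and had the opposite sign. It lies on chromosome 10 from 7832470 to 7870396. It had 58, 68 and 55 counts in the control libraries and 16, 24 and 46 counts in the cKO-labelled libraries, or 3.01, 3.49 and 2.13 CPM against 0.730, 1.25 and 2.12 CPM. The groups touched without overlapping in CPM, and in FPKM control 3 (0.51) and cKO 3 (0.52) overlapped. The log2 FC was -1.07 (95% interval -2.32 to 0.18, edgeR adjusted p = 0.249), and at fewer than 70 counts per library a change of this size was not resolved. The relatives outside the 7 genes were also low, with control means of 1.04, 0.417 and 1.73 FPKM for Zc3h12b, Zc3h12c and N4bp1. Zc3h12b and Zc3h12c had 0.15 and 0.72 as log2 FCs and N4bp1, which encodes a related nuclease, had -0.30 (edgeR adjusted p = 0.827, 0.408 and 0.686). Zfp36l3 had 0 counts in all 6 libraries.

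Rc3h1 (chromosome 1, 160906418 to 160974978) and Rc3h2 (chromosome 2, 37370069 to 37422903) encode Roquin-1 and Roquin-2, which repress Icos and Tnfrsf4 mRNA in T cells. Rc3h1 had 131, 92.0 and 103 CPM in the control libraries and 130, 122 and 126 CPM in the cKO-labelled libraries. The cKO libraries were close to each other and lay below control 1 and above controls 2 and 3. The log2 FC was 0.21 (95% interval -0.10 to 0.53, edgeR adjusted p = 0.366), and without control 1 it was 0.37 and passed (adjusted p = 0.0396), while without control 2 it was 0.11. Rc3h2 had 58.6, 61.5 and 33.2 CPM in the control libraries and 62.8, 48.7 and 51.2 CPM in the cKO-labelled libraries, with a low value in control 3. Its log2 FC was 0.087 (95% interval -0.41 to 0.58, edgeR adjusted p = 0.843), -0.15 without control 3 and -0.032 without cKO 1.

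**Figure D1:**
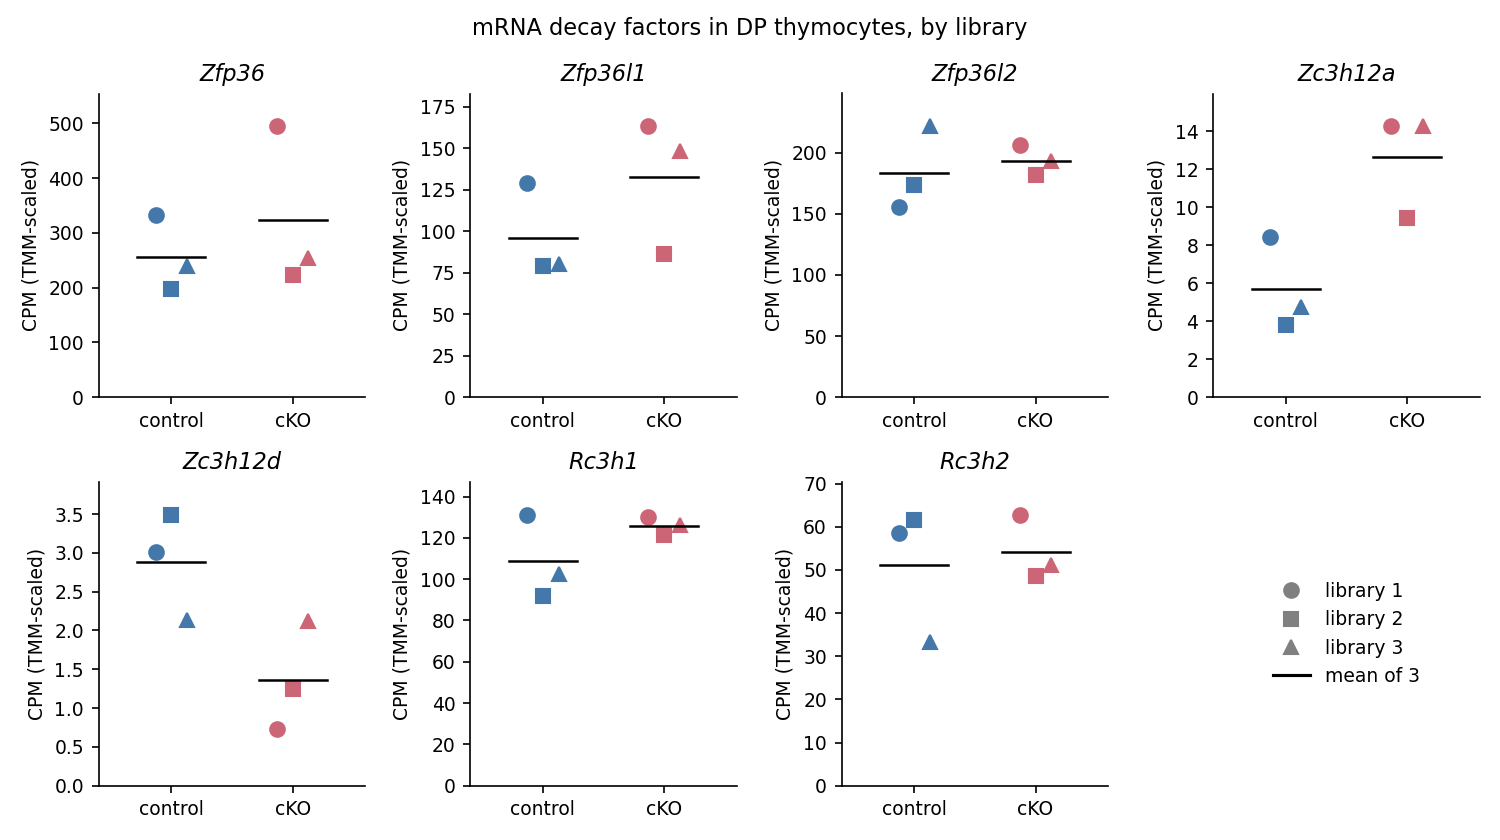
CPM of each of the 7 genes (y axis, TMM-scaled, starting at 0) in the control and cKO libraries (x axis). Each symbol is 1 library and the line is the mean of 3; the groups are apart for Zc3h12a and touch for Zc3h12d, and cKO 1 is the highest library for Zfp36 (495 CPM).

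At an adjusted p below 0.05, edgeR called 0 of the 7 genes, against 10.4% of all tested genes (4.47% higher and 5.89% lower in the cKO-labelled libraries). With the fold threshold of the study's methods added (an absolute log2 FC above 1), 2.76% of tested genes and 0 of the 7 passed. At an unadjusted p below 0.05 the count was 1 of 7, which was Zc3h12a, against 27.9% of tested genes. DESeq2 and limma-voom each called 1 of 7, again Zc3h12a. These tools also called more genes as a whole. DESeq2 called 943 genes higher and 969 lower and limma-voom 600 and 717, beside 514 and 677 in edgeR. The groups did not overlap for 2 of 7 genes, Zc3h12a and Zc3h12d, against 33.0% of tested genes. The log2 FC was above 0 for 6 of 7 genes, with a median of 0.21, beside -0.0017 over all tested genes. The intervals set the limits of these data. The upper bound was 0.39 for Zfp36l2, 0.53 for Rc3h1 and 0.58 for Rc3h2 on the log2 scale, and 0.97 and 1.02 for Zfp36 and Zfp36l1.

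**Figure D2:**
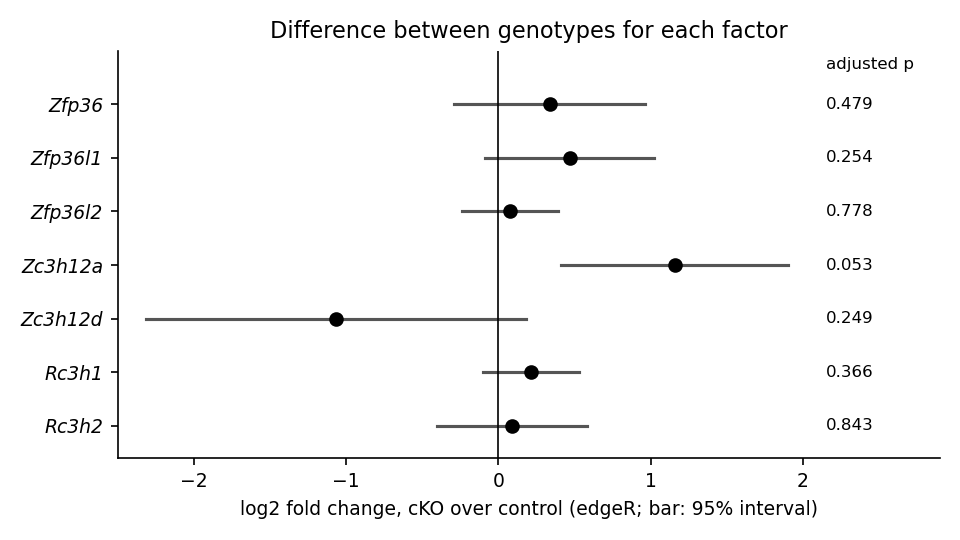
Log2 fold change, cKO over control (x axis), of each gene (y axis) from edgeR, with bars for the 95% interval and the adjusted p at the right. Only the interval of Zc3h12a (0.42 to 1.90) lies apart from 0, and no adjusted p is below 0.05.

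Among the 7 genes, the share that each supplied of the FPKM summed over its relatives was also compared between libraries, with no test. Zfp36 supplied 49.2 ± 4.68% of the ZFP36 family in the control libraries and 50.0 ± 7.72% in the cKO-labelled libraries (mean ± S.D., n = 3 each). Zfp36l1 supplied 22.8 ± 3.10% and 25.6 ± 4.87%, and Zfp36l2 28.01 ± 7.51% and 24.3 ± 5.46%. The balance of this family thus differed by less than the spread between libraries. Among the Roquins, Rc3h1 supplied 75.5 ± 7.24% and 77.5 ± 1.79%. Of the sum of Zc3h12a and Zc3h12d, the share of Zc3h12a was 80.7, 61.8 and 76.9% in the control libraries and 96.7, 91.8 and 90.9% in the cKO-labelled libraries. Its share was higher in every cKO library than in any control library, with Zc3h12d at 6.90 ± 3.12% there, beside 26.9 ± 9.98% in the controls. This share follows from the opposite signs of both genes given above and rests on few counts of Zc3h12d. With the Regnase genes Zc3h12b and Zc3h12c in the sum, which was chosen after the data were seen, Zc3h12a supplied 51.8, 41.1 and 50.7% in the control libraries and 72.0, 58.2 and 67.8% in the others, again without overlap.

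**Figure D3:**
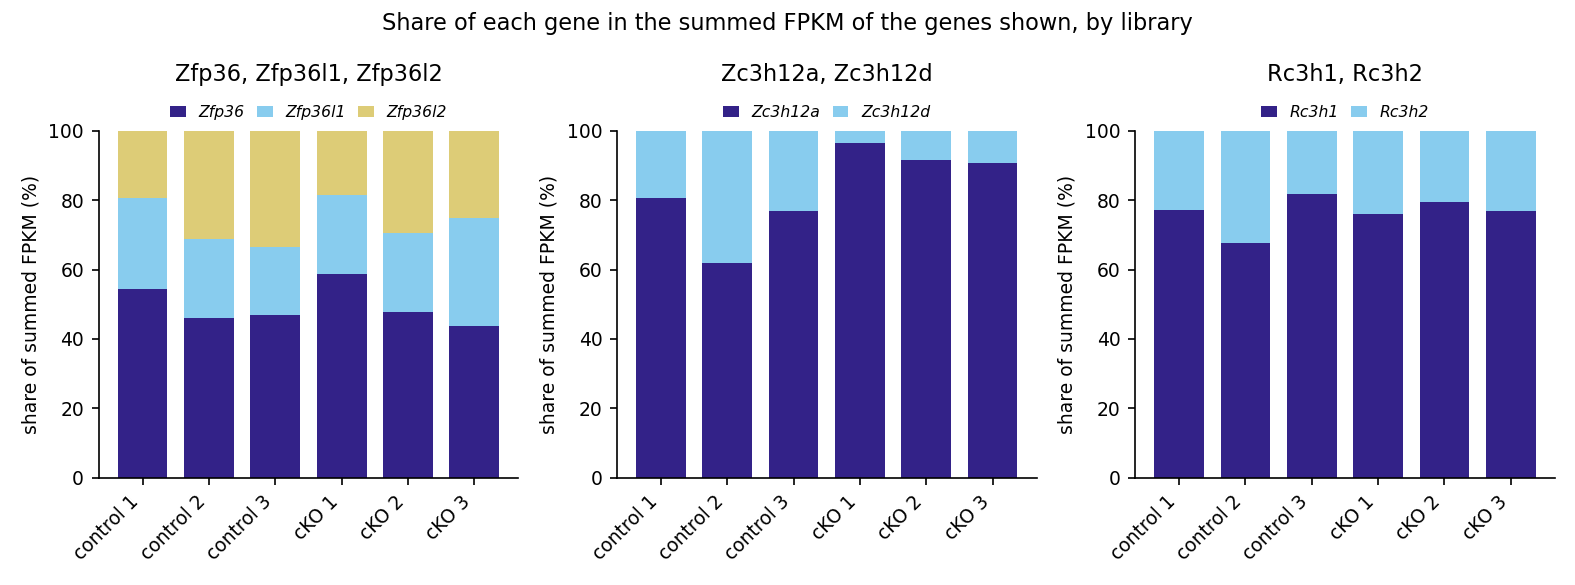
Share of each gene in the FPKM summed over the genes of its panel (y axis, percent) for each library (x axis), in 3 panels. Zc3h12a takes 90.9 to 96.7% of its sum with Zc3h12d in the cKO libraries, beside 61.8 to 80.7% in the controls, and the mean shares of the ZFP36 and Roquin genes differ by less than the spread between libraries.

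The machinery that these proteins recruit was read from lists of named genes. Of 10 CCR4-NOT subunits, 0 were higher and 1 was lower at an edgeR adjusted p below 0.05, with a median log2 FC of -0.0077. The lower subunit was Cnot3, a regulatory subunit of the complex, which had 64.3, 68.6 and 65.9 CPM in the control libraries and 45.4, 46.6 and 46.5 CPM in the cKO-labelled libraries (log2 FC -0.52, adjusted p = 0.0272). Among the 4 BTG and TOB proteins, which stimulate deadenylation, 0 passed (median 0.16). Among 16 genes of decapping and 5′ decay, 0 passed either (median 0.099). The RNA exosome, which degrades mRNA from the 3′ end, had 2 of 15 genes higher and 0 lower (median 0.15). Dis3, a catalytic nuclease, had 58.1, 55.0 and 61.1 CPM in the control libraries and 93.0, 98.4 and 92.9 CPM in the cKO-labelled libraries, a log2 FC of 0.71 (adjusted p = 0.00825). Dis3l and Exosc10, which also encode nucleases of the exosome, had 0.079 and 0.012 (edgeR adjusted p = 0.796 and 0.963). Exosc9, a subunit of the ring, had 0.54 (adjusted p = 0.0321). Leaving out 1 library moved these small medians, to between 0.016 (without cKO 1) and 0.37 (without cKO 2) for BTG and TOB proteins, up to 0.22 (without control 3) for decapping, to between 0.059 (without control 2) and 0.25 (without cKO 3) for the exosome, and to between -0.058 (without control 3) and 0.0074 (without cKO 1) for CCR4-NOT. The called shares of all tested genes, 4.47% higher and 5.89% lower, stand beside these counts.

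Proteins that control the decay factors were followed in the same way. Of 11 regulators and cofactors, 0 were higher and 2 lower (median -0.068). The sign of this median was positive without control 1, control 3, cKO 2 or cKO 3 (0.058 to 0.13). Btrc, a ubiquitin ligase subunit that marks phosphorylated Regnase-1 and IκB for destruction, had 52.5, 56.3 and 48.9 CPM in the control libraries and 28.5, 34.9 and 29.2 CPM in the cKO-labelled libraries, which did not overlap (log2 FC -0.77, edgeR adjusted p = 0.0129). Ikbkb, the kinase IKKβ, had a log2 FC of -0.47 (adjusted p = 0.0365). Malt1, the protease that cleaves Regnase-1 and the Roquins, had -0.068 (adjusted p = 0.908), and Upf1 and Nufip2, cofactors of Regnase-1 and the Roquins, had 0.33 and 0.53 (adjusted p = 0.261 and 0.119). Of 6 other AU-rich element binders, Tia1 was lower (log2 FC -0.57, adjusted p = 0.0272) and Elavl1, which stabilizes AU-rich mRNAs, had -0.058 (adjusted p = 0.811). These calls were not stable to the loss of a library. Cnot3, Exosc9 and Ikbkb lost theirs without any 1 of 5 libraries (adjusted p up to 0.111, 0.140 and 0.159), control 1 being the exception. Tia1 lost its call without control 2 or any cKO library (up to 0.131), Btrc without control 2, cKO 1 or cKO 3 (up to 0.0758), and Dis3 without cKO 3 (0.0523).

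mRNAs reported as targets of these proteins were read the same way. Of 23 reported targets of the ZFP36 family, 15 were tested, 4 were higher at an edgeR adjusted p below 0.05 and 0 were lower, with a median log2 FC of 0.51 (0.33 without cKO 1). Of 13 reported targets of Regnase-1 and the Roquins, 10 were tested, 3 were higher and 0 lower, with a median of 0.95. It was 0.65 without control 3 and 1.18 without cKO 2. This median falls between Ctla4 (1.07) and Il6 (0.82, SE 1.52), and Il6 had only 0 to 15 counts per library. Tnf, Il6 and Ptgs2 are on both lists among the tested genes. Earlier results for Ier3, Ccne2 and Ccnd2 were known when the lists were written, so the counts are a description. The background is 4.47% of tested genes higher and 5.89% lower.

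Ptgs2, which encodes cyclooxygenase-2 and is on both lists, had 3.78, 2.88 and 4.85 CPM in the control libraries and 14.97, 13.2 and 15.4 CPM in the cKO-labelled libraries. The libraries within each group lay close together and far from the other group, with a log2 FC of 1.91 (SE 0.27, edgeR adjusted p = 0.00495). Ccne2, which encodes cyclin E2, had 81.7, 94.7 and 105 CPM against 200, 203 and 262 CPM (log2 FC 1.24, adjusted p = 0.00349). Both kept an adjusted p below 0.05 in each of 14 settings, the alternatives included. Pim1, a survival kinase, had 26.5, 15.4 and 24.1 CPM against 72.3, 28.5 and 57.4 CPM (log2 FC 1.26, adjusted p = 0.0331). Ier3, a stress-induced gene, had 4.20, 0.873 and 0.737 CPM against 13.3, 5.31 and 16.1 CPM (log2 FC 2.59, adjusted p = 0.0347).

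Among the Regnase and Roquin targets, Nfkbid, which encodes an atypical nuclear IκB protein, had 23.0, 9.87 and 9.70 CPM in the control libraries and 74.3, 26.2 and 63.5 CPM in the cKO-labelled libraries. The log2 FC was 1.95 (SE 0.42, edgeR adjusted p = 0.0183), and cKO 2 again was the lowest of its group. Ctla4, an inhibitory receptor, had 16.1, 13.5 and 9.59 CPM against 27.8, 30.8 and 23.6 CPM (log2 FC 1.07, adjusted p = 0.0174). Rel, an NF-κB subunit, had a log2 FC of 1.37 and Irf4 1.49, and neither passed (adjusted p = 0.0553 and 0.0602). Icos, the receptor best known as a Roquin target, had the opposite sign, with 12.2, 15.1 and 10.2 CPM against 2.97, 12.0 and 5.67 CPM (log2 FC -0.86, adjusted p = 0.223). Tnf had 0.51 (adjusted p = 0.406). Notch1, the target of Zfp36l1 and Zfp36l2 in thymocytes, had 125, 150 and 134 CPM in the control libraries and 152, 178 and 155 CPM in the cKO-labelled libraries, with a log2 FC of 0.25 (adjusted p = 0.211). The calls for Ier3, Pim1 and Nfkbid were lost without control 2, control 3, cKO 1 or cKO 3 (adjusted p up to 0.143, 0.130 and 0.0886), and that for Ctla4 without control 2 or any cKO library (up to 0.0622).

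**Figure D4:**
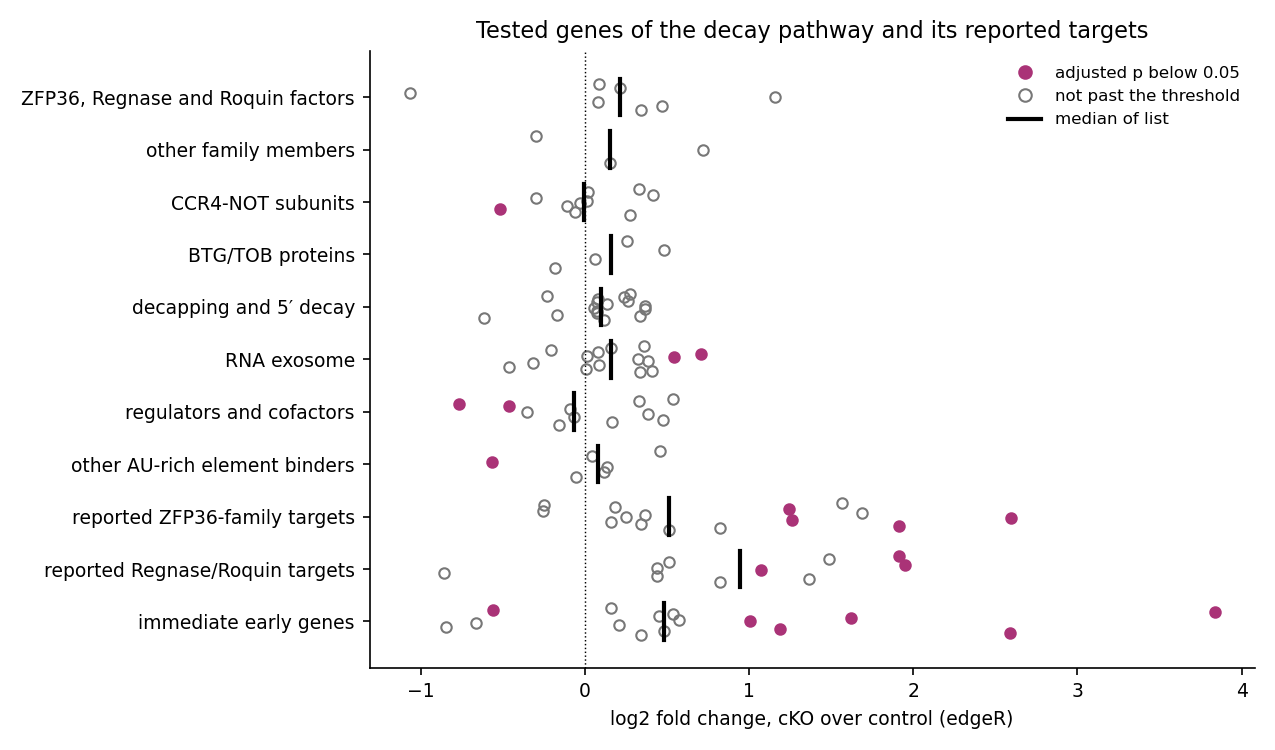
Log2 fold change, cKO over control (x axis), of the tested genes of each list (rows); filled points have an edgeR adjusted p below 0.05 and bars are list medians. Medians lie between -0.068 and 0.21 for the decay factors and their machinery. They lie at 0.51 and 0.95 for the reported targets and at 0.48 for the immediate early genes.

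Genes with and without the motif were then compared as groups, with no test. Of the tested genes, 843 held UUAUUUAUU in the annotated 3′ UTR and 10510 did not. Among those with it, 38 (4.51%) passed in edgeR as higher and 46 (5.46%) as lower, and among those without it 470 (4.47%) were higher and 626 (5.96%) lower. The median log2 FC was 0.014 with the motif and -0.0023 without it. With the shorter core UAUUUAU, which 24.8% of all 3′ UTRs hold, the medians were 0.018 and -0.0085. The median 3′ UTR was 2249 nt with the motif and 909 nt without it, and among 3′ UTRs of intermediate length (480 genes with it and 5858 without) the medians were 0.028 and -0.0065. Of the 15 tested ZFP36 targets 9 held the motif, among them 3 of the 4 that were higher (Ptgs2, Ccne2 and Pim1).

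Markers of cell state and of other cells were read beside Zc3h12a and the reported targets. The immediate early genes, to which Zfp36 belongs by its induction, had 5 of 15 tested genes higher (Atf3, Fosb, Nr4a1, Junb and Ier2, with log2 FCs from 1.01 to 3.84) and 1 lower (Klf6, -0.56), at edgeR adjusted p from 0.00872 to 0.0454. The summed level of all 16 was 3637 to 4382 CPM in the control libraries and 8964, 4418 and 6063 CPM in the cKO-labelled libraries 1, 2 and 3. Nr4a1, a nuclear receptor induced by T cell receptor signals, had 607, 373 and 504 CPM in the controls and 2140, 870 and 1559 CPM in the others. Fos had 225, 545 and 649 CPM against 1040, 341 and 415 CPM, with overlapping groups. Library cKO 1 was the highest for Fos, Nr4a1 and Zfp36. Without cKO 3, Nr4a1 and Junb missed the threshold (adjusted p = 0.0547 and 0.0523), and Atf3, Fosb, Ier2 and Klf6 also missed it without each of several other libraries (up to 0.140, 0.0752, 0.153 and 0.175). Under limma-voom Atf3, Fosb and Ier2 missed it too, and under the replicate block Atf3 and Fosb. Of 20 macrophage markers, 12 were tested, all 12 had a log2 FC above 0 (median 2.201), and 4 were higher at an adjusted p below 0.05 (Adgre1, C1qc, C1qb and Cd68). Without cKO 3, C1qb and C1qc missed it (0.0594 and 0.0543), as did Cd68 without control 2, control 3, cKO 1 or cKO 3 (up to 0.131). The summed level of the 20 macrophage markers was 10.7 to 32.4 CPM in the control libraries and 56.4 to 82.1 CPM in the cKO-labelled libraries. Among the tested markers, the groups overlapped for Csf1r, Axl and Mrc1 (log2 FC 0.22, 0.27 and 1.51, edgeR adjusted p = 0.837, 0.686 and 0.500). Adgre1, Fcgr1, Timd4 and Msr1 had 0 counts in all control libraries, and Mertk, Marco and Vsig4 had 0 counts in all 6 libraries. Among the tested markers of other cells (2 for dendritic cells, 1 for B cells, 1 for NK cells, 2 for thymic epithelium, 3 for erythroid cells and 4 for mature thymocytes), 0 were higher and 1 was lower, the B cell marker Cd79b (log2 FC -0.70). Macrophages are known to express Zc3h12a, Zfp36, Ptgs2 and Ier3. The part of macrophage RNA, and of the lower level of DP markers, in the values of Zc3h12a and the targets was not tested.

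**Figure D5:**
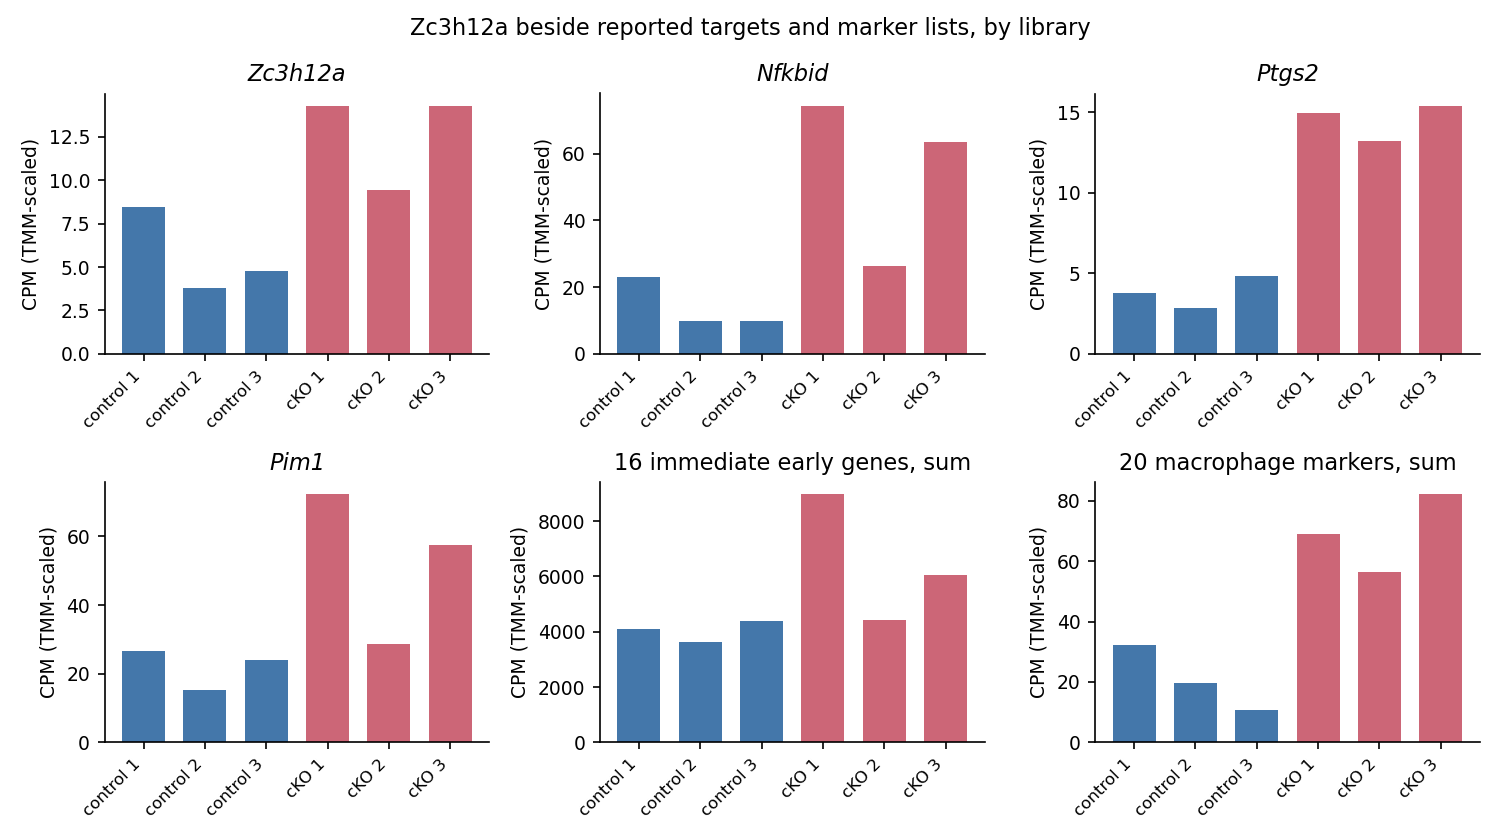
CPM per library (y axis, TMM-scaled, starting at 0) of Zc3h12a, 3 reported targets and the sums of 2 marker lists, with control libraries in blue and cKO libraries in red (x axis). Within the cKO group, cKO 2 is the lowest library in all 6 panels, and the macrophage sum (56.4 to 82.1 CPM) lies above every control. The targets shown are a choice among those called higher. Of those not shown, Ier3 was also lowest in cKO 2 (5.31 CPM), but Ctla4 was highest in cKO 2 (30.8 CPM) and Ccne2 lowest in cKO 1 (200 CPM).

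For each of the 7 genes, up to 3 genes with the most similar profile were taken by Pearson's r of log2 CPM over the 6 libraries, among 9202 genes with a mean of at least 5 CPM. They are given as names only, since 6 libraries were compared over so many candidates. For Zc3h12a they were Tacc1, Cops2 and Nup153 (r = 0.998, 0.997 and 0.995), and for Zc3h12d Sgk3, Ctdsp2 and Cmip (0.998, 0.986 and 0.978). Zfp36 was most like Olfr624, Ctdnep1 and Gm5134 (0.987, 0.975 and 0.963), Zfp36l1 like Morc2a and Gna11 (0.997 and 0.994), and Zfp36l2 like Ak6, Tmem237 and Clpb (0.972, 0.970 and 0.969). Rc3h1 was most like Eif4a2, Mef2d and Bsdc1 (0.998, 0.997 and 0.991) and Rc3h2 like Sacm1l, Slc26a2 and Them4 (0.992, 0.977 and 0.972).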

How the data were processed

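Total RNA was extracted from sorted DP thymocytes for 3 control and 3 cKO libraries. By the study's methods, cDNA was made from it and pre-amplified before library construction. The authors deposited reads counted per gene, without normalization, which are the counts used for every test, and FPKM, scaled by the authors to gene length and library size, which were used to compare genes. The submitters' processing notes name fastp 0.18.0, Bowtie2 2.2.8, HISAT2, StringTie 1.3.1 and RSEM, without their roles, and the genome build was not given in the sources used here. Deposited log2 ratios, p-values and FDR of the authors' own comparison were not used. Positions, transcripts and 3′ UTRs are from GENCODE release M21, matched by gene symbol for all 7 genes.

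Groups and replicate numbers were taken from the sample titles. The members and gene lists were chosen with earlier results of these data known. Counts were tested in R 4.3.3 with edgeR 4.0.16 (TMM, filterByExpr at its default minimum of 10 counts and total of 15, quasi-likelihood test, genotype as the only term, Benjamini-Hochberg adjustment over 11488 genes). Intervals are at 95%, from the standard error and the moderated degrees of freedom. DESeq2 1.42.0 and limma-voom (limma 3.58.1) were alternatives, as were other scalings and filters, the replicate block and leaving out each library. The scripts were tested on simulated data. Chi-square values per degree of freedom between libraries of a group were 19.7 to 68.0, so no library was a duplicate.

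The named genes are the 7 members, the other family members, at most 5 called genes a list by absolute log2 fold change, the 3 genes most similar to each member, and DP and macrophage markers. Other genes named (Malt1, Upf1, Nufip2, Elavl1, Rel, Irf4, Icos, Tnf, Notch1, Fos, Klf6, Ccnd2, Il6, Cd79b, Dis3l and Exosc10) were chosen after their values were seen. Of the genes most similar to Zfp36l1, 1 is not reported here.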

Additional observations from a re-analysis of the deposited data

How the results depend on the processing

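The number of the 7 genes at an adjusted p below 0.05 and higher moved from 0 to 1 (Zc3h12a) under DESeq2, limma-voom, no filter on low counts (edgeR adjusted p = 0.0351), a filter at a mean of 5 CPM (0.0432), and the replicate block (log2 fold change 1.21, 0.0313), and was 0 with RLE factors (0.0515) and with total counts alone (0.0541). Zc3h12d has no value under the 5 CPM filter. With 1 library left out in turn the number of the 7 called higher ranged from 0 to 2, the latter without control 1. These settings also called more genes higher as a whole than the 514 higher and 677 lower of the main fit. Without control 1, 1000 genes were higher and 1030 lower. The counts were 604 and 755 with no filter, 625 and 702 with the 5 CPM filter, and 570 and 668 with the block. The number of the 7 called lower was 0 in every setting. Left out in turn, the log2 fold change ranged from -0.10 to 0.57 for Zfp36, from 0.29 to 0.74 for Zfp36l1, from -0.035 to 0.23 for Zfp36l2 and from -0.15 to 0.24 for Rc3h2. No sign of the 7 differed under another tool, scaling, filter or the block. Same-numbered libraries did not deviate together (r = 0.0451, 0.0377 and -0.0300), so the numbers were not taken to pair them.

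Over all genes, DESeq2 gave 943 higher in place of 514. Leaving out 1 library gave 42 to 1000 higher and 78 to 1030 lower at an adjusted p below 0.05, and 28 to 270 higher and 45 to 184 lower with the fold threshold, each lowest without cKO 3. Over the machinery, target and immediate early lists together, DESeq2 gave 21 genes higher in place of 13, and leaving out 1 library gave 2 to 20 higher and 0 to 8 lower, in place of 5 lower. The cause was not tested, and fewer libraries enter each of these fits. For the shares of Zfp36, Zc3h12a and Rc3h1, each alternative moved the difference between groups by less than the spread between libraries, and for Zc3h12a that difference was 14.3 to 23.7 percentage points without 1 library and 18.1 with Zc3h12b and Zc3h12c in the sum. The motif groups were run only with a shorter core, the longest 3′ UTR and 3′ UTRs of intermediate length. The depth limits Zc3h12d most, at 16 to 68 counts.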
